A study of Mus musculus with 18 samples.

Results

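The 9 genes described here, Fdft1, Sqle, Lss, Cyp51, Tm7sf2, Msmo1, Nsdhl, Sc5d and Dhcr7, encode enzymes that make squalene and carry it to cholesterol. They were chosen by name as the probe sets whose only gene symbol is one of the 9, and gave 10 probe sets of 35556 on the array, for 9 of 19938 gene symbols. Fdft1 had 2 probe sets and the brighter one stands for it below. The study profiled RNA of whole perinatal mouse lung on Affymetrix Mouse Gene 1.0 ST arrays, to ask how epithelial SCAP/INSIG/SREBP signaling shapes the lung around birth. Used here are 18 of its arrays, 3 in each of 6 groups. The paper also names Scap lungs at E17.5, which are not among these arrays. ScapΔ/Δ mice (Scap-/- in the array labels) carried Scap flox/flox alleles with an SP-C-rtTA transgene, which is driven by a promoter of the respiratory epithelium, and (tetO)7CMV-Cre, and were compared at E18.5 and at PN1, the day of birth, with Scap flox/flox littermates that lacked rtTA or Cre. Insig1/2Δ/Δ mice (Insig-/- in the labels) carried the same transgenes with Insig1 flox/flox on an Insig2-/- background and were compared at E17.5 with Insig1 flox/flox, Insig2-/- littermates that lacked a transgene, so their controls had no intact Insig2 either. The dams of both lines received doxycycline chow in mid-gestation, and the Scap colony was of mixed strain background. Recombination was directed to the epithelium, so the other cells of the lung kept the floxed gene. Fewer cells of a type and less RNA per cell cannot be told apart in such whole-tissue RNA.

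Cholesterol is built from acetyl-CoA through mevalonate to farnesyl diphosphate, which FDFT1 joins into squalene, the first molecule committed to sterols. SQLE adds oxygen, LSS closes the rings to lanosterol, and the enzymes that follow (CYP51, TM7SF2, MSMO1, NSDHL, SC5D and DHCR7) remove methyl groups and move or reduce double bonds until cholesterol is reached. When sterols are scarce, SCAP carries SREBP precursors from the endoplasmic reticulum to the Golgi for cleavage, INSIG1 and INSIG2 retain SCAP when sterols are plentiful, and SREBPs switch on genes of sterol and fatty acid synthesis. In the lung, alveolar type II cells use this lipid supply for surfactant.

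Scap was lower in every deleted array than in every control of its age. At E18.5 the log2 values were 9.75, 9.71 and 9.71 in controls and 9.47, 9.25 and 9.22 in deleted lungs. At PN1 they were 9.91, 9.76 and 9.92 in controls and 9.54, 9.53 and 9.65 in deleted lungs. Insig1 was 9.29 or higher in the controls of the Insig line and 8.58, 8.28 and 8.21 in the deleted lungs. Neither gene's difference passed an adjusted p of 0.05 in these comparisons (limma, adjusted p 0.51 and 0.091 for Scap at E18.5 and PN1, 0.76 for Insig1). Of the 9 type II cell markers all had probe sets, and the mean of their log2 values lay between 11.48 and 12.18 in the Insig controls. Arrays KO17 and KO18 of the deleted PN1 group stood apart from all others. Over all probe sets their r with each other was 0.994 and their r with the remaining 16 was 0.931 to 0.960, whereas those 16 correlated among themselves at 0.973 to 0.998. No pair of arrays was identical.

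Promoter sequence was read for 7 of the 9 genes from RefSeq (GRCm38.p6), and Fdft1 and Sqle are named only. The 3 promoters printed below, each the 250 bases before the annotated start, belong to Msmo1 and Lss, the members with the largest difference on Insig1/2 deletion and on the direct comparison of both deletions, and to Cyp51, which rose most over birth in controls. Capitals mark matches on either strand to the letters of the sterol regulatory element core (TCACNCCA), of the NF-Y motif (CCAAT) and of the Sp1 motif (GGGCGG). NF-Y and Sp1 are general factors known to act beside SREBPs.
Msmo1, chr8:64733579-64733828, minus strand: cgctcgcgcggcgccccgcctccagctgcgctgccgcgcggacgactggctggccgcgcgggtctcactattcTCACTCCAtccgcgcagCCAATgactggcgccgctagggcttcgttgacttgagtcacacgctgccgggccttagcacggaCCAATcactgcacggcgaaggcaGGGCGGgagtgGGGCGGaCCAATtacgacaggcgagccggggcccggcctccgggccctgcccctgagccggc
Cyp51, chr5:4104698-4104947, minus strand: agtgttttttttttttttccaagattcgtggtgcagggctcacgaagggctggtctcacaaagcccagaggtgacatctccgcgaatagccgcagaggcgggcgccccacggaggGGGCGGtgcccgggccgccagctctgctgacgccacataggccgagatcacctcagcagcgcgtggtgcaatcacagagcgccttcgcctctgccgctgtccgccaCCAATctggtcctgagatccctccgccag
Lss, chr10:76531355-76531604, plus strand: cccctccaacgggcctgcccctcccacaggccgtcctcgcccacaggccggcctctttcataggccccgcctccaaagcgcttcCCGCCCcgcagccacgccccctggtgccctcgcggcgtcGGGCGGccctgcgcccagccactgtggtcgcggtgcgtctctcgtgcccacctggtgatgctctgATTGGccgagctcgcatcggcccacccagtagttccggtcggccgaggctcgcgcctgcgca
In windows that also took in 50 bases after the start, CCAAT was present in a promoter of 7 of the 7 genes, against 41.1% of the 27025 genes in the table. GGGCGG was likewise present in 7 of 7, against 38.2% of genes. TCACNCCA was present in Msmo1 only, 1 of 7, against 4.97% of genes. These are matches of letters in a short window and not mapped binding sites.

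Loss of Scap at E18.5 left all 9 enzymes with a mean below the controls, with differences of -0.56 to -0.09 on the log2 scale. Values of 7 of the 9 were lower in every deleted array than in every control, where 21% of all 22800 probe sets tested were. The median difference of the 9 was -0.26, beside -0.04 over all probe sets. None of the 9 passed an adjusted p of 0.05 (limma over 12 Scap arrays), and neither did more than 2 probe sets in all, 0.00877%. At an unadjusted p under 0.05, 5 of the 9 were lower (Sqle, Lss, Cyp51, Tm7sf2 and Dhcr7), against 4.85% of all probe sets. Sex was not balanced at this age. Xist exceeded the Y-linked genes, as in a female, in 1 of 3 controls and 2 of 3 deleted arrays. With a term for sex, chosen after the data were seen, the median difference was -0.39. Nsdhl lies on the X chromosome.

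Sqle, the oxygen-adding step and a rate-limiting enzyme of the segment, gave log2 values of 9.48, 9.75 and 9.57 in E18.5 controls and 9.28, 9.02 and 8.82 in deleted lungs. The groups did not overlap, with a difference of -0.56 ± 0.21 (SE, n = 3 and 3, limma adjusted p 0.53). Dhcr7, which makes the final reduction to cholesterol on one branch of the pathway, was 8.55, 8.57 and 8.51 in controls. In deleted lungs it was 8.07, 8.11 and 8.17, the widest gap among the 9 between the lowest control and the highest deleted array. Its difference was -0.43 ± 0.12 (limma adjusted p 0.51). Lss and Cyp51, the ring-closing and the first demethylating enzyme, differed by -0.44 ± 0.16 and -0.47 ± 0.18. Msmo1, the sterol methyl oxidase, overlapped between groups, at 9.59, 9.92 and 9.91 in controls and 9.48, 9.84 and 9.85 in deleted lungs. Sc5d, a sterol desaturase, overlapped as well, and the differences of both were -0.09. Fdft1, Tm7sf2 and Nsdhl lay between, at -0.22, -0.23 and -0.26. The mean of the 9 type II cell markers was also below every control, at -0.19 to -0.05 in deleted lungs and -0.04 to 0.05 in controls, although 5 of those 9 markers had a difference above 0. Neutrophil markers lay above every control, at 0.12, 0.31 and 0.45 against -0.08 to 0.09, with S100a8 (1.15) and S100a9 (0.68) leading and 3 of 6 markers below 0. Hepatocyte markers were at 1.41 in KO11, 0.36 in KO10 and -0.26 in KO12, against -0.08 to 0.07 in controls. The part of these lists in the enzyme values was not tested.

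**Figure D1:**
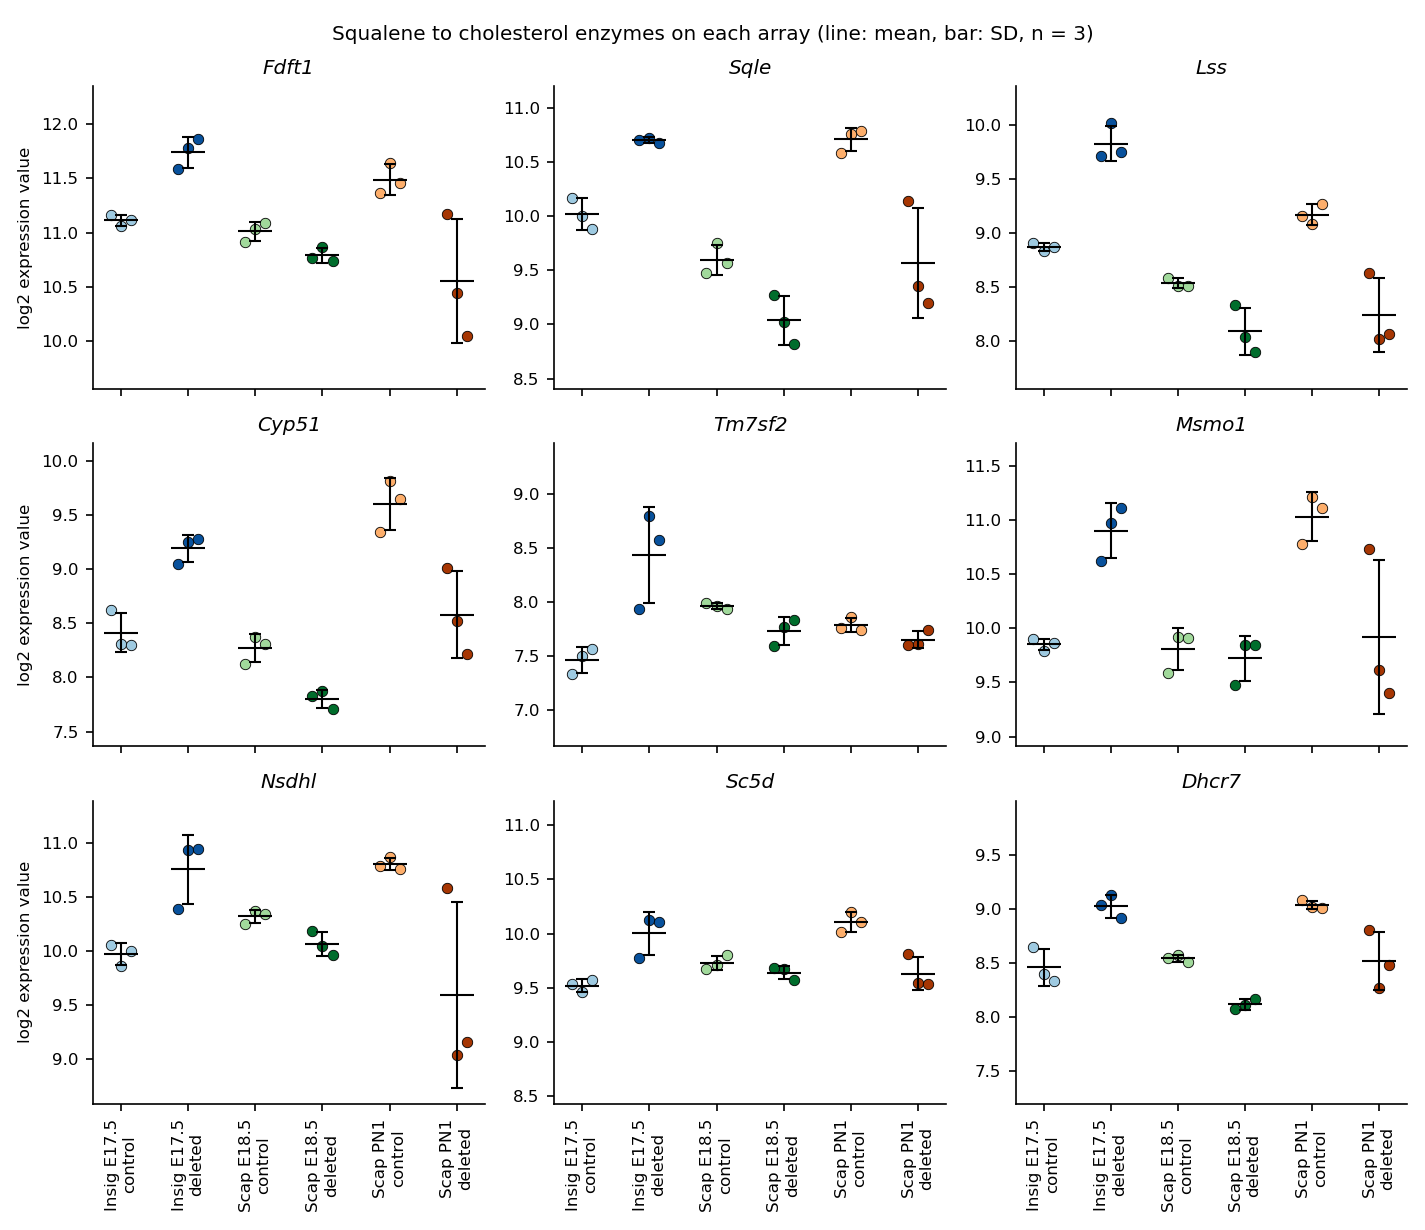
Deposited log2 expression value (y axis, a span of 2.8 in every panel, shifted by gene) of the 9 enzymes on the 3 arrays of each of the 6 groups (x axis), with points for arrays, a line for the mean and a bar for the SD. Control and deleted points of the Insig line are separated in all 9 panels, and the deleted PN1 group spreads most for 7 of the 9 genes.

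At PN1 all 9 enzymes were lower in every deleted array than in every control, where 11% of all probe sets were, and the median difference was -0.94, beside -0.06 over all 22800. No member passed an adjusted p of 0.05, nor did more than 2 probe sets in all (0.00877%). For 8 of the 9 the limma adjusted p was 0.083 to 0.090, and at an unadjusted p under 0.05 the same 8 were lower, against 20.8% of all probe sets. With 3 arrays against 3, a two-sided exact permutation test over arrays cannot go below a p of 0.1.

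Nsdhl, a sterol dehydrogenase that removes the oxidized methyl groups, showed the largest difference. Its log2 values were 10.78, 10.87 and 10.76 in controls and 10.58, 9.04 and 9.16 in deleted lungs, a difference of -1.21 ± 0.31 (limma adjusted p 0.090). Sqle was 10.59, 10.76 and 10.79 in controls and 10.14, 9.36 and 9.20 in deleted lungs, or 0.452 times the control level on the log2 mean (difference -1.15 ± 0.21, limma adjusted p 0.083). Msmo1, which had overlapped a day earlier, was 10.77, 11.21 and 11.11 in controls and 10.73, 9.62 and 9.41 in deleted lungs. Its difference was -1.11 ± 0.29. Cyp51, Fdft1 and Lss followed at -1.02, -0.94 and -0.93, and Dhcr7 and Sc5d at -0.52 and -0.48. Tm7sf2, a sterol reductase whose reaction the nuclear-envelope protein LBR can also carry out, differed by -0.14 ± 0.08 (limma adjusted p 0.26), with 7.76, 7.86 and 7.74 in controls and 7.60, 7.61 and 7.74 in deleted lungs.

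The size at PN1 rested on 2 of the 3 deleted arrays. Relative to the control mean the median of the 9 enzymes was -0.30 in KO16, or 81.1% of the control level, but -1.08 in KO17 and -1.39 in KO18, or 47.2% and 38.2%. KO16 lay above both of these for 8 of the 9 genes, all but Tm7sf2, and still below every control for all 9. Its distance below the lowest control was 0.04 for Msmo1 and 0.45 for Sqle and Lss. With KO17 and KO18 left out, which leaves KO16 as the 1 deleted PN1 array, the median difference at PN1 was -0.30, close to the -0.26 of E18.5. With KO16 left out instead, 8 of the 9 passed an adjusted p of 0.05, but so did 61.9% of all probe sets.

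Several other measures moved with those arrays. Against the controls, the 9 type II markers averaged -0.22 in KO16, and -0.59 and -0.62 in the other pair. The group difference was below 0 for 8 of the 9 markers and lowest for Sftpa1, at -1.85, while Sftpc, the gene of surfactant protein C, differed by 0.09. Markers of all epithelium were at -0.26 and -0.27 in KO17 and KO18, below every control (-0.19 to 0.15), and at 0.04 in KO16. Type I cell markers were at -0.40 and -0.36 in the same pair, against -0.04 to 0.07 in controls, and at 0.04 in KO16. The 3 erythroid markers measured were lower in every deleted array, with a median of -0.42. The macrophage marker mean was -0.40 in both KO17 and KO18 and 0.01 in KO16. KO16 was also the 1 deleted PN1 array of 3 in which Xist exceeded the Y-linked genes, that is, a female, as was 1 of the 3 controls. The part of these differences in the enzyme result was not tested. With 1 female of 3 in both PN1 groups, a term for sex, chosen after the data were seen, cannot move the PN1 differences and acts on their error alone. In that fit 7 of the 9 passed, against 5.11% of all probe sets. In 1 fit of all 18 arrays, 8 of the 9 passed, against 13.2%.

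**Figure D2:**
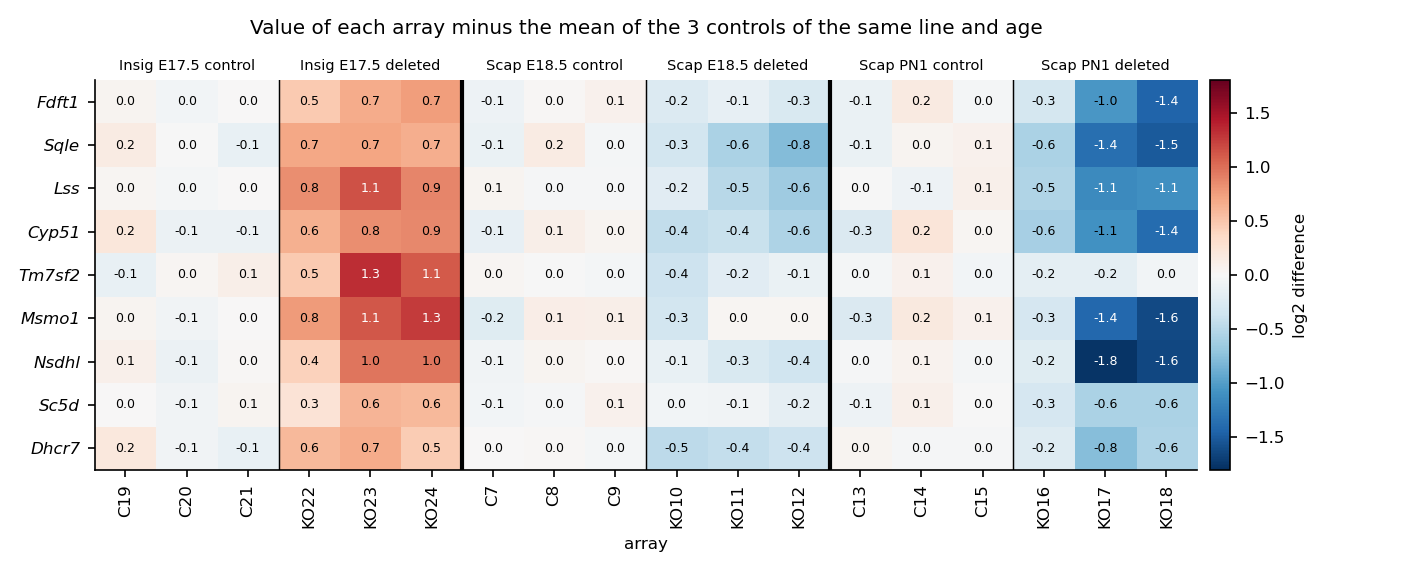
Difference of each array (columns) from the mean of the 3 controls of its line and age, on the log2 scale, for each enzyme in pathway order (rows), with blue below and red above the controls. KO17 and KO18 are the darkest blue columns, KO16 resembles the E18.5 deleted arrays, and Tm7sf2 is pale across the PN1 group.

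Averaged over both ages, the effect of Scap deletion on the 9 enzymes had a median of -0.60, and none passed, beside 0.0482% of all probe sets. Sqle (-0.85), Cyp51 (-0.74), Lss (-0.69) and Dhcr7 (-0.47) came nearest, all at a limma adjusted p of 0.068. The change in the effect from E18.5 to PN1 was below 0 for 8 of the 9, with a median of -0.56, against 53.5% of all probe sets. It was largest for Msmo1 (-1.03 ± 0.41) and Nsdhl (-0.95 ± 0.44) and smallest for Dhcr7 (-0.09 ± 0.16), which was about as far below control at E18.5 as at PN1. No probe set passed in this comparison (0%, or 18.3% at an unadjusted p under 0.05), so a larger effect at PN1 than at E18.5 was not shown for any member. Without KO17 and KO18 the median change was -0.09.

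In control lungs of the Scap line, 2 of the 9 enzymes rose over birth. From E18.5 to PN1, 8 of the 9 enzymes were higher in every array, where 17.6% of all probe sets were, with a median difference of 0.49 beside 0.01 overall. Cyp51 and Sqle passed an adjusted p of 0.05, beside 2.58% of probe sets called in either direction. Cyp51 went from 8.12, 8.37 and 8.31 to 9.35, 9.82 and 9.64, a rise of 1.33 ± 0.18 or 2.52-fold (limma adjusted p 0.0060). Sqle went from 9.48, 9.75 and 9.57 to 10.59, 10.76 and 10.79, a rise of 1.11 ± 0.21 or 2.16-fold (limma adjusted p 0.024). Neither gene overlapped between the ages. Fetuses were taken by Cesarean section and PN1 pups were killed with pentobarbital, so age and way of collection cannot be told apart. The others higher at PN1 missed the threshold: Msmo1 by 1.22 (adjusted p 0.055), Lss by 0.63 (0.069), Dhcr7 by 0.49 (0.053), Nsdhl by 0.48, Fdft1 by 0.48 and Sc5d by 0.38 (limma adjusted p 0.061). Tm7sf2 was the exception, lower in every PN1 control than in every E18.5 control, with a difference of -0.18 ± 0.08 (limma adjusted p 0.40). Cyp51 passed with any 1 of the 12 arrays left out, and Sqle did not in every case (adjusted p from 0.00027 to 0.12).

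In ScapΔ/Δ lungs the same interval gave a median of 0.15, and only Cyp51 and Dhcr7 were higher in every PN1 array, where 16.7% of probe sets were. Both passed, Cyp51 by 0.78 ± 0.18 (limma adjusted p 0.016) and Dhcr7 by 0.40 ± 0.12 (adjusted p 0.027), 2 of 9 in a comparison where 37.6% of all probe sets passed. Sqle was 9.28, 9.02 and 8.82 at E18.5 and 10.14, 9.36 and 9.20 at PN1, and the ages overlapped. Nsdhl, Fdft1, Tm7sf2 and Sc5d had differences of -0.47, -0.24, -0.08 and -0.01, and none passed. The median was -0.06 without KO16 and 0.54 without KO17 and KO18. In the latter fit KO16 alone stands for PN1 and is assumed to vary like the other groups, and 5 members were called beside 6.2% of probe sets. Both birth comparisons share their fit and arrays with the deletion comparisons but no arrays with each other. PN1 controls that read high raise the change over birth in controls and lower the PN1 deletion difference, so these results are not independent.

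**Figure D3:**
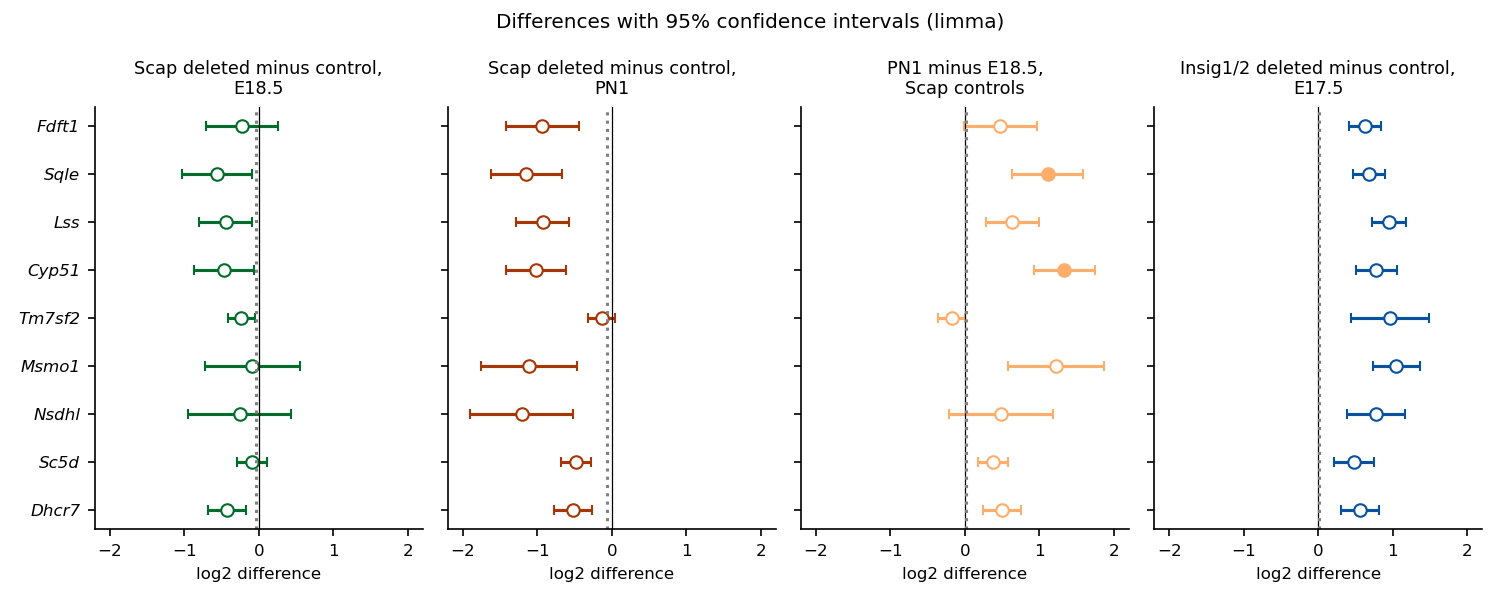
Difference between group means on the log2 scale (x axis) with its 95% confidence interval from limma, for each enzyme in pathway order (y axis), with filled points for an adjusted p under 0.05 and a dotted line at the median of all probe sets. Only Sqle and Cyp51 in the change over birth in controls are filled, and Tm7sf2 stands apart from its neighbours in the PN1 and birth panels but not in the Insig panel.

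Deletion of Insig1 on the Insig2-/- background gave the opposite picture at E17.5. All 9 enzymes were higher in every Insig1/2Δ/Δ array than in every control, where 5.83% of the 22775 probe sets tested were. The median difference was 0.78, beside 0.01 over all probe sets, and the 9 differences ranked between 13 and 445 by size. No probe set of the array (0%) passed an adjusted p of 0.05 in this comparison of 6 arrays (limma, 933 or 4.1% at an unadjusted p under 0.05). The members' adjusted p was 0.73 to 0.76, and all 9 had an unadjusted p under 0.05, against 2.2% of probe sets that were higher at that level.

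Msmo1 was 9.90, 9.79 and 9.86 in controls and 10.62, 10.98 and 11.11 in deleted lungs, 2.07 times the control level (difference 1.05 ± 0.13, limma adjusted p 0.73). Tm7sf2, which had hardly differed in the Scap line at PN1, was second at 0.97 ± 0.22. Its values were 7.33, 7.50 and 7.57 in controls and 7.94, 8.79 and 8.57 in deleted lungs, clearly apart although the deleted arrays spread widely. Lss, from 8.91, 8.83 and 8.87 to 9.71, 10.01 and 9.75, differed by 0.96 ± 0.10 with little spread. Nsdhl and Cyp51 each differed by 0.78, Sqle by 0.69, Fdft1 by 0.63, Dhcr7 by 0.57 and Sc5d by 0.48.

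The 6 arrays of this line fell into 2 sets of like profile that cut across genotype, C19, C20 and KO22 in one and C21, KO23 and KO24 in the other, with r of 0.993 to 0.997 within and 0.984 to 0.991 between them. The labels do not say what set them apart. Within sets the median difference of the 9 enzymes was 0.52 in the first and 0.94 in the second, above 0 for every member in both. By Xist and the Y-linked genes, 2 of the 3 controls were female, and KO22 was the 1 female of the 3 deleted arrays. KO22 was the lowest of the 3 deleted arrays for 7 of the 9, all but Sqle and Dhcr7. Type II markers overlapped between the groups, with array means of -0.13 to 0.37 in deleted lungs and -0.32 to 0.38 in controls. Cardiac muscle markers were at 1.68 in C21, the only control of the second set, and at -0.97 and -0.71 in C19 and C20. In deleted lungs they were at -0.60 to -0.31. Hepatocyte markers were at 0.63 in C20, against -0.29 and -0.34 in C19 and C21 and -0.43 to 0.01 in deleted lungs. The part of these lists in the enzyme values was not tested.

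**Figure D4:**
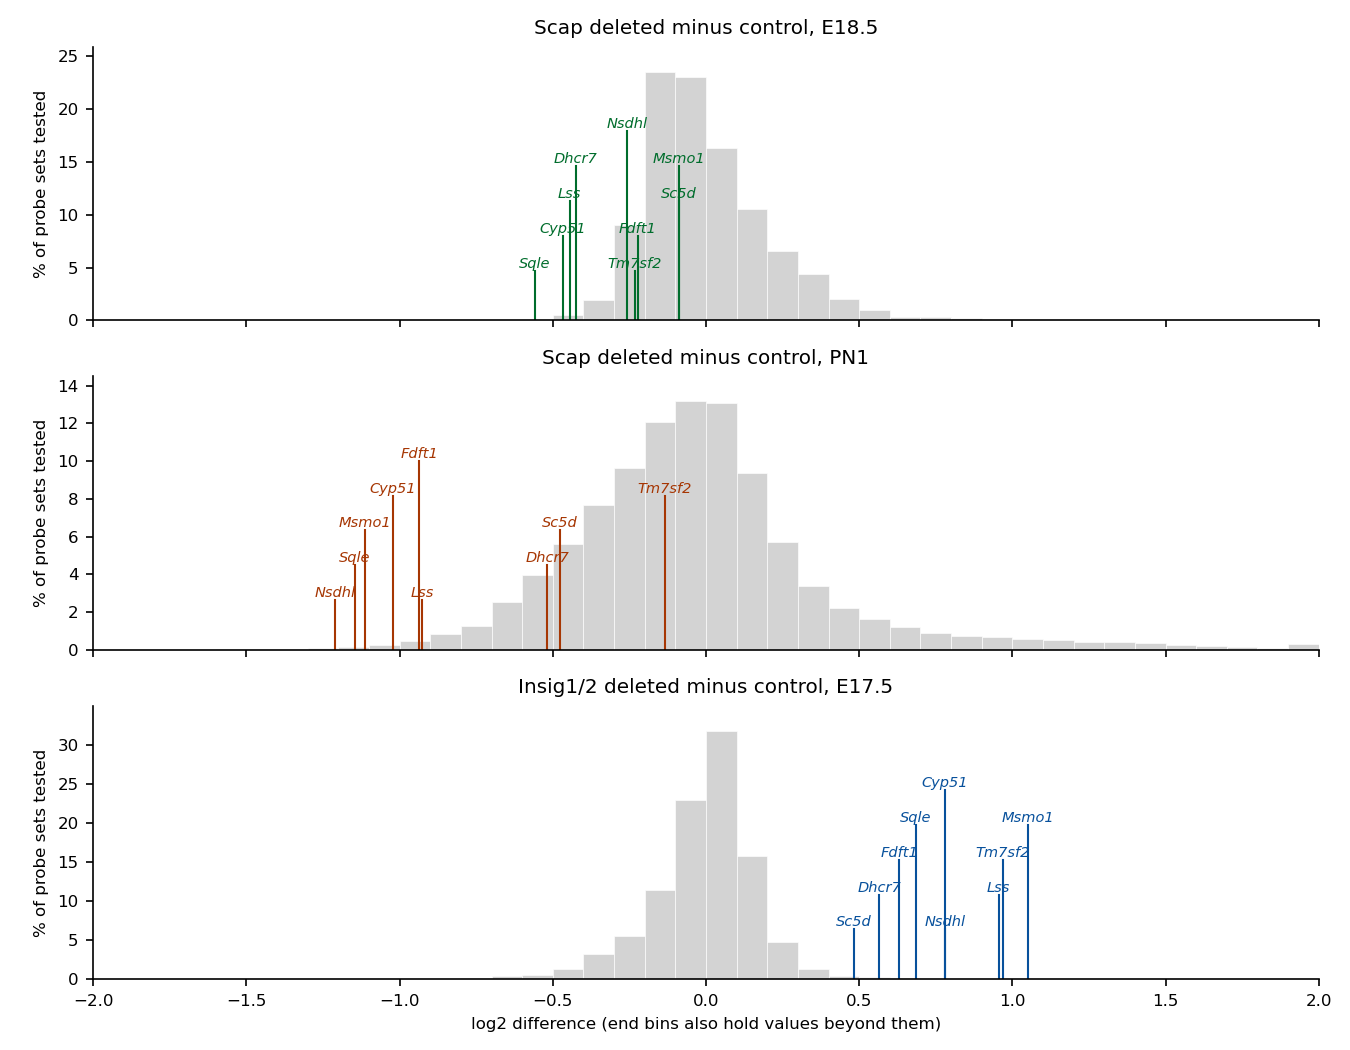
Share of all tested probe sets in bins of 0.1 (grey bars, y axis) by log2 difference between deleted and control lungs (x axis), with vertical lines for the 9 enzymes, whose height only spaces the names. The enzymes lie in the upper tail in the Insig panel. At PN1 6 of them lie in the lower tail, Dhcr7 and Sc5d on the lower flank and Tm7sf2 within the bulk, and at E18.5 they spread from the lower tail into the bulk.

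Set against each other, the Insig1/2 effect at E17.5 exceeded the Scap effect at E18.5 for all 9 enzymes, with a median of 1.14 beside 0.02 over 22717 probe sets. Only Lss passed, beside 0.0308% of all probe sets. Its control and deleted means differed by 0.96 in one line and by -0.44 in the other, a difference of 1.40 ± 0.20 (limma over all 18 arrays, adjusted p 0.027). Dhcr7 (0.99, adjusted p 0.060) and Tm7sf2 (1.20, adjusted p 0.13) were next. The remaining 6 had adjusted p of 0.20 to 0.91. Line and age differ together between these models and cannot be told apart. The call for Lss was lost in 10 of the 12 fits that left out 1 array, with a term for the sets of Insig arrays (limma adjusted p 0.052), with median centring (0.24) and in the unmoderated test (0.085).

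Over the 6 groups, the mean was highest in PN1 controls for 6 enzymes (Sqle, Cyp51, Msmo1, Nsdhl, Sc5d and Dhcr7) and in Insig1/2Δ/Δ lungs for the other 3 (Fdft1, Lss and Tm7sf2). It was lowest in E18.5 ScapΔ/Δ lungs for 5 (Sqle, Lss, Cyp51, Msmo1 and Dhcr7), in PN1 ScapΔ/Δ lungs for Fdft1 and Nsdhl, and in Insig controls for Tm7sf2 and Sc5d. Of the 45 steps between groups that neighbour each other in these orders, 29 had overlapping ranges. Overlap of ranges is a description and not a test of difference. Levels of different probe sets are not comparable, but every member lay at or above the 48.5 percentile of its array on all 18 arrays.

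The enzymes varied together from array to array. With the control mean of each line and age subtracted, which keeps the differences between genotypes, the 36 pairs of members had a median Pearson r of 0.929 over 18 arrays. The members' median r with other probe sets was 0.169. Each of 8 members followed the mean of the others at 0.927 to 0.981. Tm7sf2 followed it at 0.732, and its pair with Nsdhl was the lowest at 0.647. With the mean of each group subtracted instead, so that differences within groups alone are left, the median r was 0.627, beside 0.111 with other probe sets. The lowest pair was then Sqle with Tm7sf2 at -0.234, and Tm7sf2 followed the mean of the others at 0.11. These within-group differences include that of KO16 from KO17 and KO18, where the members averaged -0.36, -1.04 and -1.10 against the controls. The second Fdft1 probe set gave the same directions, -0.20 at E18.5, -1.26 at PN1, and 0.71 in the Insig line, and read lower than the first by 0.88 in KO17, where the gap was 0.10 to 0.30 in controls and 0.10 to 0.49 in the other deleted arrays.

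The 10 genes whose profile over the 18 arrays was most like the mean of the 9 included enzymes just before them in the pathway. Idi1 (r = 0.985), Hmgcs1 (0.980), Aacs (0.975), Fdps (0.973) and Mvd (0.959) came first, then Snai1 (0.958), Tlcd1 (0.949), Mvk (0.946), Aup1 (0.945) and Fgfbp1 (0.945). Idi1, Hmgcs1, Fdps, Mvd and Mvk act between acetyl-CoA and farnesyl diphosphate, and Aacs feeds acetoacetate into the same route. Without KO17 and KO18, 7 of these 10 were named again. With the mean of each group subtracted, only Idi1 was, by another of its probe sets, and Necap2 and Hes1 led instead.

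Of 8 mevalonate genes, 6 had a probe set with 1 symbol. All 6 were below control at E18.5 and at PN1 and above it in the Insig line, with medians of -0.29, -0.75 and 0.69, close to those of the 9 enzymes. None passed at either age. Fdps, which makes farnesyl diphosphate, passed in the averaged Scap effect and fell by 0.62 on the log2 scale (limma adjusted p 0.038), beside 0.0482% of all probe sets. It also passed in the change over birth in controls (0.66, limma adjusted p 0.016, beside 2.58%). In the comparison of both models it passed as well (1.33, limma adjusted p 0.0091, beside 0.0308%). Idi1 differed by -1.50 at PN1 (adjusted p 0.090). Of 4 other genes of the squalene to cholesterol segment with a probe set, Hsd17b7, a sterol reductase, was nearest to the members at -1.04 at PN1, and Lbr differed by -0.31 at PN1 and -0.10 in the Insig line. Their median was -0.45 at PN1 and 0.20 in the Insig line, and none of the 4 passed in any comparison.

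Of the regulators, 6 of 7 had a probe set. Insig1, itself an SREBP target, passed in the averaged Scap effect and fell by 0.72 (limma adjusted p 0.030), beside 0.0482% of all probe sets. Srebf2, the gene of the SREBP that serves cholesterol synthesis, was -0.58 at E18.5 and -0.43 at PN1, and differed by 0.09 in the Insig line. Srebf1 was -0.58, -0.30 and 0.34. Genes of sterol uptake and transport (4 of 6 measured) had medians of -0.12 at E18.5, -0.38 at PN1 and 0.08 in the Insig line, and Stard4, a sterol carrier, was lowest at -0.90 at PN1. Genes of liver X receptors and sterol export (4 of 5 measured) all had differences below 0 over birth in controls, with a median of -0.80. Abca1, a sterol exporter, fell by 1.46 in controls (limma adjusted p 0.013) and Mylip, which degrades lipoprotein receptors, fell by 1.07 (adjusted p 0.0042). In that comparison 2.58% of all probe sets passed, and these genes were not refitted there with single arrays left out. In ScapΔ/Δ lungs, where 37.6% of all probe sets passed over birth, all 4 genes of this list fell. Mylip was at -1.67, Nr1h3 (a liver X receptor) at -1.64, Abca1 at -1.03 and Abcg1 at -0.53. Of the 4 uptake genes there, Lipa (-0.77), Stard4 (-0.61) and Npc2 (-0.41) fell and Npc1 (0.49) rose. Of the regulators, Srebf2 (0.52), Insig1 (0.39) and Scap (0.26) rose and Insig2 (-0.66) fell, and of the mevalonate genes Pmvk (0.60) and Fdps (0.45) rose. Cyp7b1 (-0.68) and Cyp27a1 (-0.40) of sterol oxidation fell, as did Sec14l2 (-0.59) and Cyb5a (-0.53) among the helpers, while Cyb5r3 (0.25) rose. Most of these calls were lost without KO17 or without KO18. Of the 33 pathway genes tested 19 passed, but 6 without KO17 (7.56% of all probe sets) and 6 without KO18 (8.61%), fits added after the data were seen. Fdps, Srebf2, Nr1h3, Abca1 and Mylip passed in both of these fits, Cyp7b1 only without KO17 and Cyp27a1 only without KO18. Without KO16, also added then, 26 passed (72.1% of all probe sets), 18 of them among the 19. With KO16 as the 1 PN1 array 10 passed (6.2%), 7 of them among the 19. Insig2 was 10.20 in KO16 but 9.53 and 9.62 in the other pair, against 10.38, 10.49 and 10.48 at E18.5. The 3 genes tested of sterol esterification and oxidation, of 4 measured, and the 6 measured electron donors and helpers had medians of 0.04 and -0.23 at PN1.

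**Figure D5:**
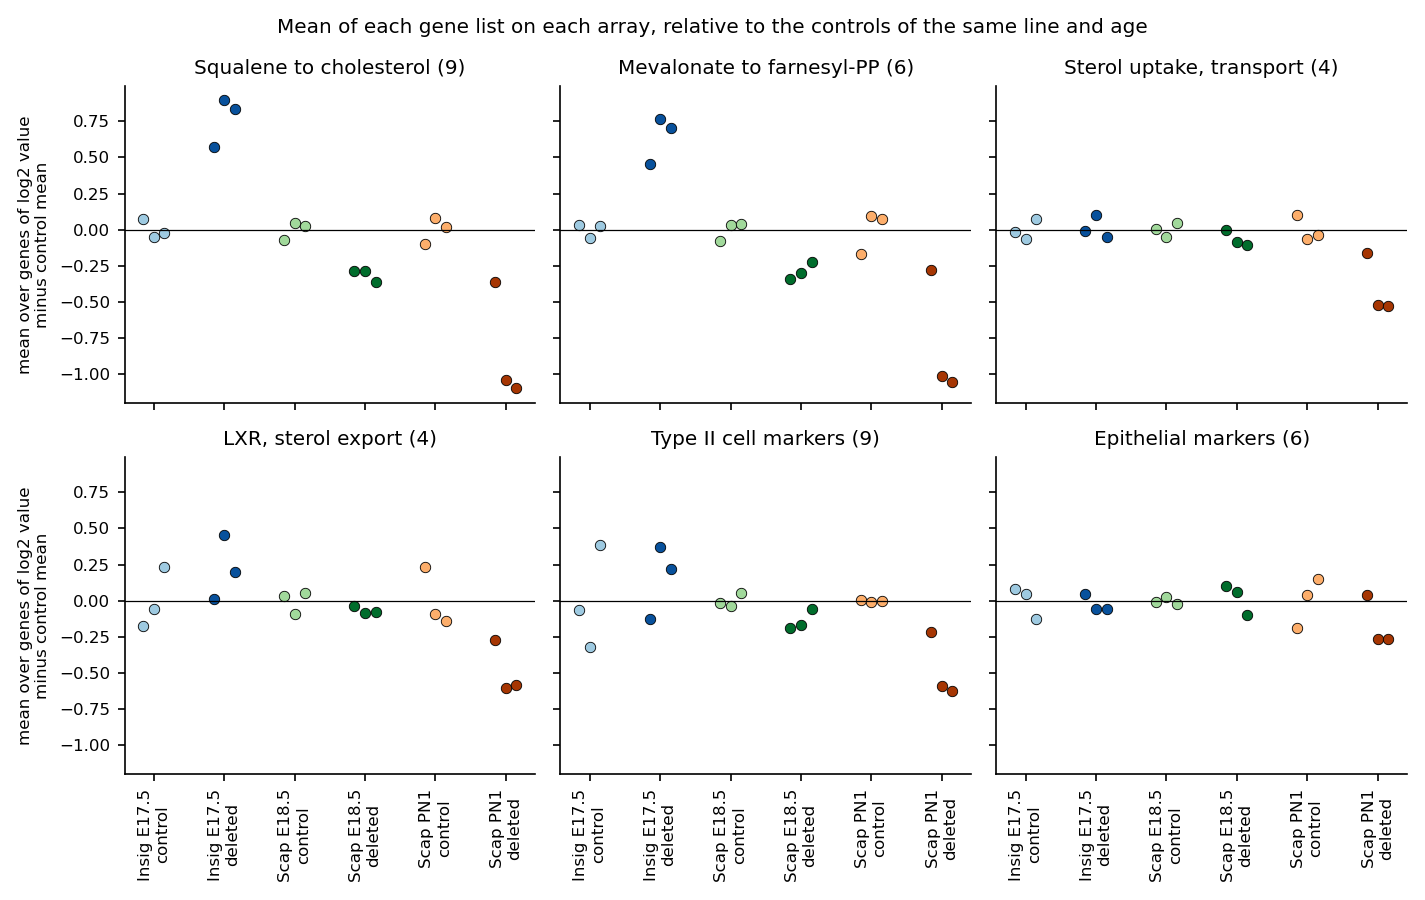
Mean over the genes of each list of the log2 value minus the control mean of the same line and age (y axis), with 1 point an array in the 6 groups (x axis) and the number of genes measured in brackets. Only the squalene to cholesterol and mevalonate panels separate deleted from control arrays in all 3 comparisons.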

How the data were processed

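RNA of whole mouse lung was hybridised to 18 arrays, and the array labels give 6 groups of 3 biological replicates. The authors deposited log2 expression values for 35556 probe sets, and the summarization and between-array normalization behind them are not given in the sources used here. The authors' further analysis in GeneSpring GX was not used. Probe sets were named from the platform annotation, in which 21789 have 1 gene symbol, 1621 several and 12146 none.

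Differences were fitted with limma 3.58.1 in R 4.3.3 with 1 mean per group, over 12 Scap arrays, 6 Insig arrays or all 18, giving 8 comparisons. A probe set was tested if 66% or more of a fit's arrays had it no lower than their 35th percentile (22800, 22775 and 22717 probe sets). All 9 members passed. P-values were adjusted by Benjamini-Hochberg over all probe sets tested, with a threshold of 0.05, and SE are limma's moderated ones. The fits were tested on simulated data. The number of arrays limits the precision.

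The members and gene lists were chosen with earlier results of these data known. Every member is named, as are genes of the other lists that passed in any comparison, up to 4 more of a list with the largest change in the comparison spoken of, and the 10 genes most like the members. Alternatives were no filter, a 50th percentile filter, quantile normalization, median centring, a mean-variance trend, an unmoderated Student test, array weights, each array left out, KO17 and KO18 left out, 1 age or all 18 arrays in a fit, a term for the Insig sets and, added after the data were seen, a term for sex read from Xist and the Y-linked genes and, for pathway genes over birth, deleted PN1 arrays left out.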

Additional observations from a re-analysis of the deposited data

Results flagged for a closer look

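The effects of both deletions on Lss differed from each other by 1.40 on the log2 scale in the test of that difference (Insig1/2 minus Scap, limma adjusted p 0.027), with control to deleted differences of 0.96 at E17.5 and -0.44 at E18.5. The call was lost with a term for the sets of Insig arrays (limma adjusted p 0.052), with median centring, in the unmoderated test and in 10 of 12 fits without 1 array. Of the 9 enzymes, 7 were higher in every Insig1/2Δ/Δ array than in every control and lower in every E18.5 ScapΔ/Δ array than in every control (all but Msmo1 and Sc5d), where 1.14% of the 22438 probe sets tested in both lines were. With the PN1 ScapΔ/Δ arrays instead 9 were so, beside 0.437% of probe sets, Tm7sf2 among them by a gap of 0.0017 on the log2 scale. These counts of opposite movement were not tested as such. For the E18.5 arrays Lss alone passed in the test of the difference, and for the PN1 arrays that difference was not tested.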

How the results depend on the processing

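In all, 1521 values of single enzymes were refitted, of which 1340 kept direction and side of the threshold, 132 passed it, 28 lost it and 21 changed sign. No paired analysis was possible because the replicate numbers in the labels are not shared between groups. All 9 differences at PN1 and in the Insig line kept their direction under every alternative run, and so did all at E18.5 apart from Msmo1. Single arrays limit the calls: with each left out in turn, members called ranged from 0 to 1 at E18.5, 0 to 8 at PN1, 0 to 9 for the averaged effect, 0 to 7 for the change of effect with age, 1 to 8 for birth in controls, 0 to 4 for birth in deleted lungs and 0 to 2 for Insig1/2 minus Scap. The highest value came without KO16 in the first 6 of these, where 0.437%, 61.9%, 45.7%, 58.4%, 12% and 72.1% of all probe sets passed in turn, and without KO22 in the last. Without KO10 the averaged effect had 2. Birth in controls had 1 without C7, C8, C9, C14 or C15, birth in deleted lungs 0 without KO12 and 1 without KO10, KO11 or KO18, and Insig1/2 minus Scap kept 1 or more without KO10 and KO22 in turn and 0 otherwise.

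In the same refits, the median ranged from -0.32 to -0.23 at E18.5 and from -0.0570 to 0.26 for birth in deleted lungs. Single values that changed sign there ranged from -0.20 to 0.0347 for Msmo1 at E18.5 and from -0.24 to 0.0329 for Dhcr7 in the change of effect with age. For birth in deleted lungs they ranged from -0.10 to 0.0354 for Sc5d, -0.0439 to 0.27 for Lss, -0.21 to 0.45 for Msmo1 and -0.55 to 0.0168 for Fdft1. The cause was not tested.

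With quantile normalization 4 members (2.47% of all probe sets) passed for birth in controls, Tm7sf2 was -0.0651 in the change of effect and Sc5d 0.11 for birth in deleted lungs. With median centring 1 passed for birth in controls (1.28%), 1 for birth in deleted lungs (37.9%) and 0 for Insig1/2 minus Scap. Tm7sf2 was then -0.0759 in the change of effect, and the median for birth in deleted lungs, which is Lss, was -0.0225, while the median of all probe sets moved from -0.03 to -0.20. The unmoderated Student test gave 1 for birth in controls (1.96%) and 0 for Insig1/2 minus Scap, and the term for Insig sets gave 0 there as well. Array weights, whose estimation stopped before it converged, gave 4 at E18.5, 9 at PN1, 9 averaged, 8 for the change of effect, 8 for birth in controls, 4 for birth in deleted lungs (median -0.0695, Lss -0.0033, Msmo1 -0.14), 9 for Insig1/2 and 9 for Insig1/2 minus Scap, where 11.2% to 76.1% of all probe sets passed. All 18 arrays in 1 fit gave 8 at PN1 (13.2% of all probe sets), 6 averaged (3.31%) and 6 for birth in controls (3.79%). The term for sex, chosen after seeing the data, gave a median of -0.39 at E18.5, 7 members at PN1 (5.11%) and 5 averaged (4.44%), with Sc5d at 0.0186 for birth in deleted lungs. Without KO17 and KO18, where KO16 is the 1 deleted PN1 array and is assumed to vary like the other groups, the medians were -0.30 at PN1, -0.27 averaged, -0.0904 for the change of effect (Nsdhl 0.0347, Dhcr7 0.19) and 0.54 for birth in deleted lungs with 5 called (6.2%), where Fdft1 was 0.38, Nsdhl 0.52 and Sc5d 0.17. Of the 10 genes most like the members, 1 was named again with each group's mean subtracted.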
